A study of Drosophila melanogaster with 3 samples.

Results

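Of 30000 Sp1-GFP peaks in the list called on all replicates together, 1280 (4.27%) had their summit inside an exon and more than 500 bp from every transcription start site (TSS) of a protein-coding gene. These are the exonic peaks away from promoters. Their summits fell in a 5' UTR in 282 cases, in coding sequence in 556 and in a 3' UTR in 442, with the gene models of Ensembl release 115 on dm6. Within that list the rule uses position alone, so their signals, their recovery in replicates and their base composition played no part in it. The list itself ends at 30000 lines, with a lowest signal of 32.8. A further 3114 exonic summits lay within 500 bp of a TSS and were left out.

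The DNA came from whole larvae at the wandering stage of the third instar, from 1 transgenic Drosophila melanogaster line that carries Sp1 fused at its C terminus to green fluorescent protein, both sexes together. Chromatin was sonicated to fragments of 200 to 800 bp and recovered with an antibody to the tag. There was 1 group of 3 biological replicates, with no other genotype, stage or treatment, so the comparisons below are between kinds of genomic position. Whole animals mix all larval tissues, and no peak can be assigned to one of them. The lists of the replicates and the pooled list each end at 30000 lines, and read depth is unknown from them. Signal below is the authors' peak height, comparable within a list and not across lists.

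Sp1 is a zinc finger protein of the Sp/KLF family, whose members bind G-rich DNA, and it is known in flies for its role in leg growth. Such factors are found mostly at promoters and at enhancers in introns and between genes. Exons can also hold regulatory sequence: a 5' UTR exon of one transcript can be an intron of another, and 3' UTRs often lie just upstream of the next gene.

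The sequences below show what lies under strong exonic summits. The first lines are the summits of 5 of the 6 strongest coding peaks and of 5 of the 6 strongest 5' UTR peaks, each as 30 bases on the plus strand of dm6, 5′ to 3′, around the summit. Capitals mark GAGAG (or CTCTC on the other strand), the core read by the GAGA factor Trl, and CACACA (or TGTGTG), and all other bases are in lower case.
bif coding, chrX:11681819-11681848: gattccactggaggtcatcactctgttgtt
CG5895 coding, chr3L:16037137-16037166: atttggaaatatttaatttgtactgaattg
Socs36E coding, chr2L:18141785-18141814: ctgactggcagcgactcgagcacttcgcaa
bif coding, a separate peak, chrX:11683669-11683698: agcggaatcggcagcgggaggcgcccaacg
klar coding, chr3L:506252-506281: cgaacccagacccaaggtggcgctgctgtg
Raf 5' UTR, chrX:2296312-2296341: tacaaatcgcagtatttacctggcaaacgt
firl 5' UTR, chr2L:12065847-12065876: attttactagatttatatagaatttatata
Nup153 5' UTR, chrX:16599990-16600019: gctcgcaggaattgcaacagTGTGTGcttt
eas 5' UTR, chrX:16279564-16279593: acttagccaccCTCTCgctccggccctgta
spen 5' UTR, chr2L:160898-160927: agacaacagGAGAGaaattgtcgtgtcgtt

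The next lines show GAGAG words up to 69 bp from the summit in strong 5' UTR peaks. They were chosen for holding the word and placed on it, so they illustrate the word and are no contrast with the summits above.
Nup153 5' UTR, chrX:16599921-16599950: agaaggcaggataGAGAGtgagaacgaagc
ogre 5' UTR, chrX:6983963-6983992: GAGAGaaagaaaaGAGAGaaaaagggggtt
wts 5' UTR, chr3R:30800486-30800515: cttgatattgttgCTCTCaataaagataat

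Peaks were sparse in exons. Exon beyond 500 bp of a TSS made up 21.7% of all sequence outside promoters and held 5.81% of the peaks there. The density was 4.96 pooled peaks per 100 kb in exons, against 22.1 per 100 kb in introns and intergenic DNA together, which are called the rest below. The 3 kinds of exonic sequence differed among themselves. 5' UTRs held 26.6 peaks per 100 kb, 3' UTRs 7.31 and coding sequence 2.98. The 5' UTR density was therefore close to the 25.7 per 100 kb of introns, whereas coding sequence was the sparsest kind of position measured. Promoters held 52.1 per 100 kb.

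Exonic peaks were also weak. The pooled signal had a median of 60.4 in exons, with quartiles of 42.3 and 105.9, against a median of 85.2 in the rest. By kind, the median was 93.3 in 5' UTRs, 73.7 in 3' UTRs and 47.5 in coding sequence. Signals under 100 made up 73.4% of exonic peaks (940 of 1280) and 56.3% of the rest. The authors' optimal set, which is the pooled peaks with signals of 220.4 and above, held 126 of the exonic peaks, or 9.84% (Wilson 95% interval 8.33 to 11.6%). It held 20.8% of the rest (20.3 to 21.4%) and 26.7% of all pooled peaks. The share was 17.4% in 5' UTRs (49 peaks, 13.4 to 22.2%), 14.0% in 3' UTRs (62 peaks, 11.1 to 17.6%) and 2.70% in coding sequence (15 peaks, 1.64 to 4.40%). These intervals cover counting only, and neighbouring peaks are not independent: 300 exonic peaks had an interval that overlapped another exonic peak's, and merging them left 1126 separate regions.

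The replicates gave the same order in their own lists. The median signal of exonic peaks was 24.7, 26.8 and 24.5 in replicates 1, 2 and 3, against 35.8, 40.4 and 33.5 for the rest. Exonic medians were below those of the rest in every replicate, at 0.695 ± 0.0346 times the rest (SD, n = 3), or -0.53 ± 0.07 on the log2 scale. The sign-flip permutation test, exact and two-sided, gave p = 0.25, the smallest that 3 replicates allow, and 0.806 after Benjamini-Hochberg adjustment over the 29 tests of this kind. The ratio was 0.603 ± 0.0210 for coding peaks and 0.785 ± 0.0585 for 3' UTR peaks, both below 1 in 3 of 3 replicates (exact permutation p = 0.25 each, adjusted 0.806). For 5' UTR peaks it was 0.992 ± 0.0555, above 1 in 2 replicates and below it in 1 (exact permutation p = 1). When each replicate's list was cut to its strongest lines, as many as the optimal set holds, the exonic ratio was nearer to 1, at -0.17 on the log2 scale.

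The share of exonic peaks climbed from the top of the pooled list to its end, and coding peaks made most of that climb. They made up 0 of the 2000 strongest pooled peaks, 0.350% of ranks 8002 to 12000 and 5.20% of ranks 25001 to 30000. 3' UTR peaks levelled off below them at the end of the list, and 5' UTR peaks stayed low throughout. In the last 5000 lines exonic peaks made up 11.4, 14.2 and 7.32% in replicates 1, 2 and 3, while in the first 1000 they made up 1.00, 1.00 and 1.10%. The replicates thus differed in how many exonic peaks their lists held mainly through their weak ends. Whole lists held 1709, 1970 and 1162 exonic peaks, and their strongest lines, cut to the length of the optimal set, held 134, 133 and 116. Peaks in 5' UTRs numbered 307, 283 and 296 and hardly varied, whereas coding peaks numbered 793, 992 and 494 and 3' UTR peaks 609, 695 and 372, with replicate 3 lowest in both.

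**Figure D1:**
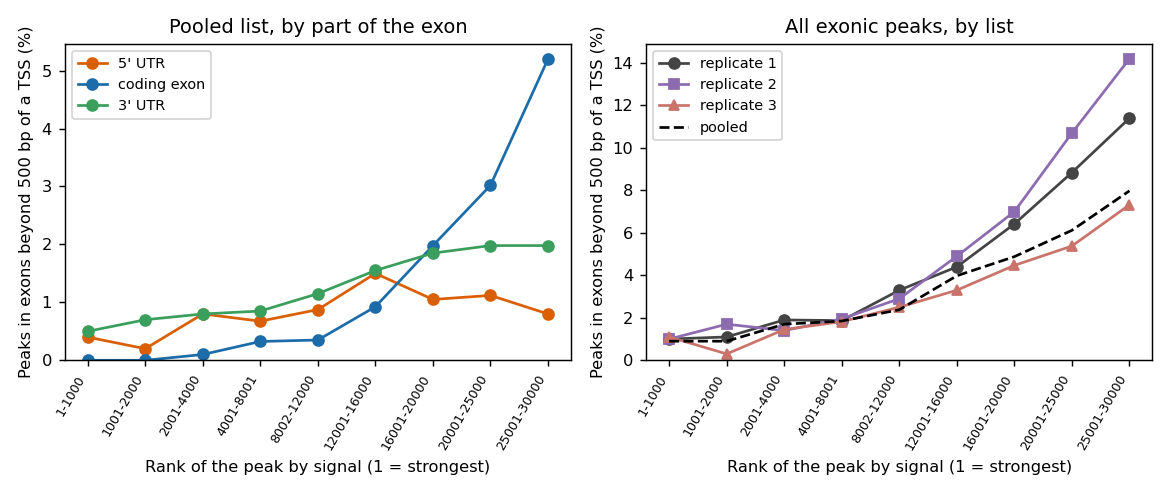
Share of peaks (%) in exons beyond 500 bp of a TSS, by rank of signal from strongest to weakest, for 5' UTR, coding and 3' UTR summits of the pooled list (left) and for all exonic summits of each replicate's list and the pooled list (right). Coding peaks reach 5.20% in the last ranks of the pooled list, and the 3 replicates lie together at the strong end and separate at the weak end.

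Exonic peaks were found less often in single replicates, with differences between the kinds of exon and between replicates. A pooled peak was counted as found where a replicate summit lay within 100 bp. Exonic peaks were found in replicates 1, 2 and 3 in 57.8, 55.8 and 39.3% of cases, against 64.1, 59.7 and 63.3% for the rest, with 68.3, 64.7 and 61.4% over all pooled peaks. The exonic share minus that of the rest averaged -11.4 ± 11.0 percentage points and was below 0 in 3 of 3 replicates (exact sign-flip permutation p = 0.25, adjusted 0.806). Replicate 3 set most of that mean: the differences were -6.26, -3.95 and -24.0 points. All 3 replicates found 211 exonic peaks (16.5%), against 31.8% of the rest, and 161 were found in none. Coding peaks fared worst, with 37 (6.65%) found in all 3 and 100 in none. 3' UTR peaks were found in 68.1, 62.4 and 40.5% of cases, which was above the rest by 4.02 and 2.71 points in replicates 1 and 2 and differed from it by -22.8 points in replicate 3. 5' UTR peaks were found in 61.6 ± 2.84% of cases per replicate, close to the 62.4 ± 2.32% of the rest.

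At matched pooled signal the replicates disagreed on whether exonic peaks were found less often. Below a signal of 50 it was 29.3 ± 7.18% against 31.6 ± 4.18% (SD, n = 3), and between 50 and 100 it was 51.5 ± 14.1% against 53.4 ± 2.58%. From 100 to the lowest optimal signal it was 75.5 ± 10.8% against 78.6 ± 3.74%, and in the optimal set 88.9 ± 8.05% against 94.2 ± 1.63%. The exact permutation p-values were 1, 1, 0.75 and 0.5. These means average unlike replicates. Below 50 the difference from the rest was 4.90, 3.15 and -15.0 points in replicates 1, 2 and 3, and between 50 and 100 it was 3.08, 10 and -18.8 points. From 100 to the lowest optimal signal it was -0.174, 4.76 and -13.7 points, and in the optimal set 1.85, -5.21 and -12.5 points. Replicate 3 was below the rest in each range, with 21.3, 35.3, 63.1 and 81.7% of exonic peaks against 36.3, 54.1, 76.8 and 94.2% of the rest. Promoter peaks were also found less in replicate 3, at 60.3% against 81.0 and 79.1% in replicates 1 and 2. What in replicate 3's list goes with these differences was not tested.

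**Figure D2:**
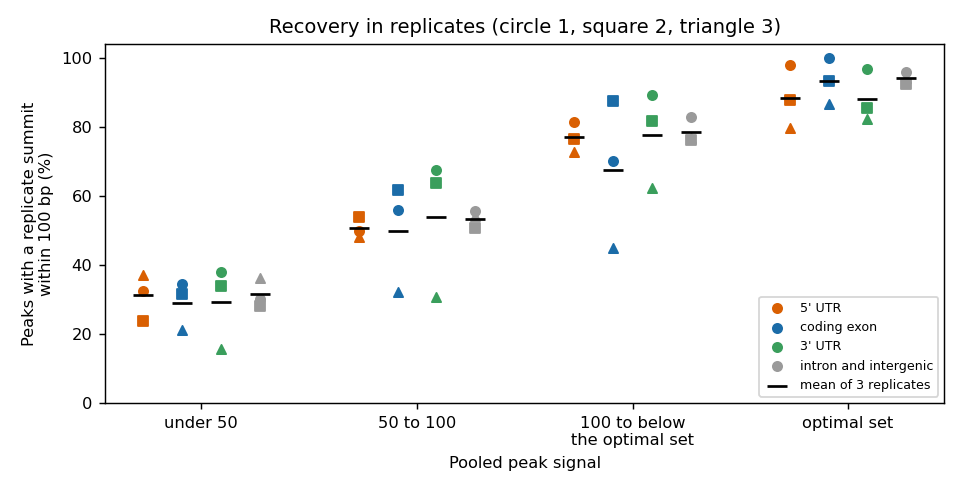
Share of pooled peaks (%) with a replicate summit within 100 bp, by range of pooled signal, for 5' UTR, coding and 3' UTR peaks and for intronic and intergenic peaks. Points are the 3 replicates and bars their mean; the triangles of replicate 3 lie lowest for coding and 3' UTR peaks in every range.

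The strongest exonic peaks were in UTRs. The 20 with the highest pooled signal ranged from 702.7 to 4397, and 13 lay in a 3' UTR, 7 in a 5' UTR and 0 in coding sequence. All 3 replicates found 18 of them. 9 were on the X chromosome. The strongest was in the 3' UTR of CG43389 (chr3L:3248259-3249711), with a pooled signal of 4397 and replicate signals of 1628, 1523 and 1276. All 3 replicates had high values there in their own lists. The start of a long noncoding RNA gene, CR43626, lay 430 bp away, within the distance used for promoters of protein-coding genes. Raf, the kinase that relays signals from the EGF and Torso receptors to MAP kinase, carried the second in a 5' UTR (chrX:2295455-2296831). Its signals were 937.8, 893.0 and 789.5 in the replicates and 2616 in the pooled list.

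Next came the 3' UTR of CG7872 (chrX:15579560-15580020), with 985.6, 823.9 and 618.7 in the replicates. The 3' UTR of Ance-3, of the angiotensin-converting enzyme family, followed (chr2L:13955683-13956166) with 800.9, 635.8 and 927.1. Which replicate had the highest value changed from peak to peak. No scaling is stated between lists, so this does not rank the replicates. Fbl6, an F-box protein gene, had a 5' UTR peak with a pooled signal of 2064, whose summit lay 525 bp from a TSS, just past the 500 bp limit. The remaining 5' UTR peaks among the 20 were at firl (1781), the nuclear pore gene Nup153 (1516), the ethanolamine kinase gene eas (1148), the transcriptional regulator spen (851.6) and the innexin gene ogre (702.7). The ogre summit was 54 bp from the start of a long noncoding RNA gene. Replicate 3 had no summit within 100 bp of it, and its nearest was 101 bp away with a signal of 178.0.

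The other 3' UTR peaks among the 20 belonged to genes of unlike functions. They included stas (1543), the tensin gene by (1171), and Mef2, the muscle transcription factor (957.7), as well as scf (837.9). They also included Lsd-2, a perilipin of lipid droplets (793.4), Pbgs, an enzyme of haem synthesis (787.1), and 4 genes known by CG numbers alone (CG33307 at 1663, CG8206 at 1036, CG14440 at 978.9 and CG9837 at 709.6). At Mef2 the replicates gave 401.3, 452.8 and 158.5 in their own lists. Lsd-2 gave 311.1, 343.0 and 155.8, and Pbgs 295.8, 330.3 and 143.1. Replicate 3 had the lowest value at each, which without scaling between lists does not rank the replicates. At scf replicates 1 and 3 had 252.5 and 328.6, and the nearest summit of replicate 2 lay 105 bp away with 265.6, just past the matching distance.

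**Figure D3:**
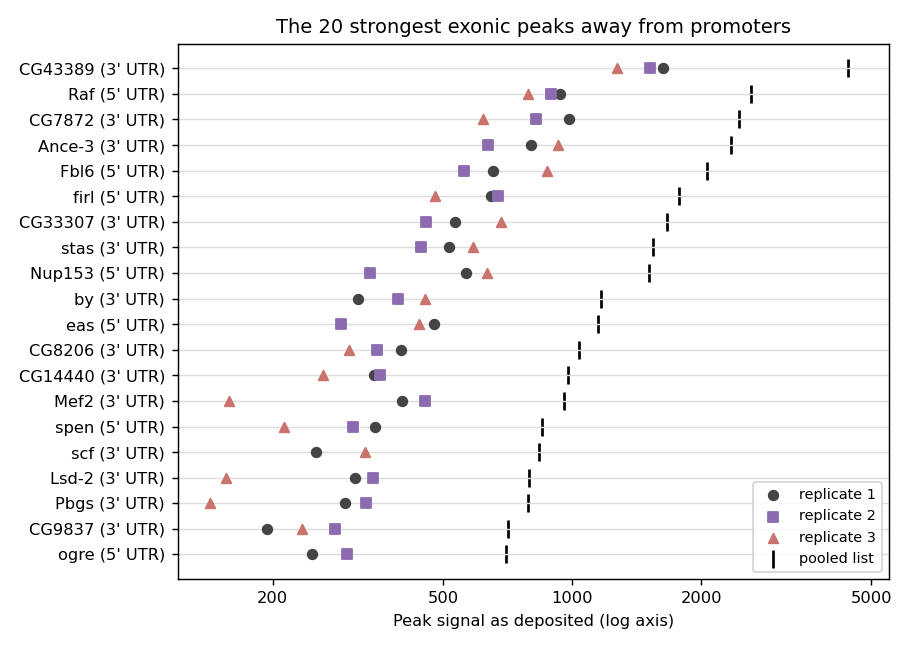
Deposited signal (log axis) of the 20 strongest exonic peaks in each replicate's list and in the pooled list, one gene per line with its kind of exon, strongest at the top. No scaling is stated between lists. The pooled values run between 702.7 and 4397; scf has no point for replicate 2 and ogre none for replicate 3, where the nearest summit lay just past 100 bp.

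Coding peaks reached far lower maxima. The highest was in otp, a homeodomain gene (chr2R:20884422-20884727), with replicate signals of 187.7, 161.6 and 196.0 and a pooled signal of 526.3. Each replicate value was far above the median of coding peaks in its own list, which was 21.1, 23.9 and 21.0. The actin-binding protein gene bif had the second, at 501.7, in an interval (chrX:11681491-11682281) with another summit of 261.8, and a further coding peak at 324.0. Its strongest summit had signals of 194.5 and 70.1 in replicates 1 and 3, and the nearest summit of replicate 2 was 114 bp away with 216.3. CG5895 followed with 147.7, 76.0 and 196.3 (pooled 396.4). Socs36E, a feedback inhibitor of JAK/STAT signalling, had 160.3, 123.0 and 112.5 (pooled 395.4). At klar, a gene for nuclear positioning and organelle transport, the replicates gave 137.8, 76.9 and 89.8 (pooled 289.6). All of these had a summit within 100 bp in at least 2 replicates and stood far above the coding median of 47.5.

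On either side of the 500 bp limit lay mostly 5' UTR peaks. Just past the limit, and so counted, were 5' UTR peaks at Trf2, which overlaps lawc (503 bp from a TSS, signal 70.9), HmgD (508 bp, 65.9) and nSyb (509 bp, 55.0). At the limit, and so left out, were peaks at loco (5' UTR, 500 bp, 366.0, in the optimal set), hang (coding, 500 bp, 116.8) and CG12054 (5' UTR, 500 bp, 104.7).

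Position within the gene differed by kind of exon. The median distance to the nearest TSS was 1585 bp, and it was 933.5 bp for 5' UTR, 1676 bp for coding and 1993 bp for 3' UTR peaks. That nearest TSS belonged to the gene whose exon held the summit in 91.8% of 5' UTR peaks, 69.6% of coding peaks and 49.8% of 3' UTR peaks. In 129 of the 442 3' UTR peaks (29.2%) it belonged to another gene and the summit lay upstream of it. The interval of 169 exonic peaks reached into the 500 bp around a TSS, and that of 2 held a TSS. Of all exonic summits 307 (24.0%) lay in an intron of another transcript, including 50.4% of those in 5' UTRs, 16.4% in coding sequence and 16.7% in 3' UTRs. None of these distances and shares was measured over all exonic bases. They describe where the summits lay and set no trait of the peaks apart. Exons with a summit were about as long as exonic sequence at large: the median exon length was 1180 bp at summits and 1147 bp over all exonic bases beyond 500 bp of a TSS. The share within 50 bp of an exon edge was 14.9% at summits and 15.0% of bases. The start of a noncoding gene lay within 500 bp of 3.52% of exonic peaks and of 2.66% of the rest. The rest leaves out 881 peaks that lay in noncoding genes and in no protein-coding gene. Over all peaks outside promoters the share was 3.79%. A stronger pooled summit lay within 500 bp of 19.4% of exonic peaks and of 21.2% of the rest.

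The X chromosome held 312 exonic peaks, 24.4% of them, while it held 19.9% of all pooled peaks and 19.2% of exonic sequence away from promoters. It also held 43 of the 126 in the optimal set (34.1%), against 19.6% of all peaks in that set. The small chromosome 4 held 4.

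Base composition set exonic peaks apart, and mostly through coding sequence. In windows reaching 100 bp to each side of the summit the mean G+C content was 47.3% in exonic peaks, against 40.2% in the rest. It was 44.3% in 5' UTRs, 54.5% in coding sequence and 40.0% in 3' UTRs. Within the replicates' own lists exonic peaks exceeded the rest by 6.73, 5.79 and 7.92 percentage points, a mean of 6.81 ± 1.07 (exact permutation p = 0.25, adjusted 0.806). Coding peaks exceeded it by 13.6 ± 1.58 points, while 3' UTR peaks differed by -0.700 ± 1.50 (exact permutation p = 0.75). Windows of the same length taken every 100 bp had a mean of 47.8% in exonic sequence, against 40.4% in introns and intergenic DNA, so the gap between the peaks was close to that between the sequences they lie in. Within kinds, peaks were richer than their own sequence in coding exons (54.5% against 51.8%) and in 3' UTRs (40.0% against 35.9%). Exonic peaks of the optimal set were less G+C-rich, at 41.2% against 47.9% for the other exonic peaks, and so were those of the rest, at 35.2% against 41.5%. The exonic gap mixes kinds, as coding peaks were 15 of the 126 optimal and 541 of the 1154 other exonic peaks. Within kinds it was smaller: 42.7% against 44.7% in 5' UTRs, 50.8% against 54.6% in coding sequence and 37.6% against 40.4% in 3' UTRs.

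GAGAG on either strand was more frequent near strong than near weak exonic peaks. It lay within 100 bp of the summit in 334 exonic peaks (26.1%), against 23.8% of the rest, 25.1% of all pooled peaks and 22.2% of windows of that length across exonic sequence. Among exonic peaks of the optimal set it was present in 55 of 126 (43.7%), against 24.2% of the other exonic peaks. Optimal peaks of the rest held it in 23.4%. It was present in 53.1% of optimal 5' UTR peaks and 38.7% of optimal 3' UTR peaks, where windows across 5' UTRs and 3' UTRs held it in 25.8 and 18.9%. Among the strongest lines of replicates 1, 2 and 3, cut to that length, exonic peaks held it in 40.3, 39.1 and 37.1%, a mean of 38.8 ± 1.63% against 24.0 ± 2.39% for the rest. It was higher in 3 of 3 replicates, by 14.8 ± 1.31 percentage points (exact permutation p = 0.25, adjusted 0.397 over 100 tests of words). The kinds of exon differed. Among these strongest lines 5' UTR peaks exceeded the rest by 24.2 ± 5.92 points, and 3' UTR peaks held the word in 35.9, 24.2 and 37.5%, higher than the rest in 2 of 3 replicates. Over whole replicate lists the exonic difference was 1.20 ± 1.84 points, with 5' UTR peaks above the rest by 13.0 ± 0.863 points in 3 of 3 replicates and coding peaks at -3.02 ± 1.21 points. CACACA, another of the 10 words, had a like pattern in 5' UTR peaks, while 3' UTR peaks differed. Among the strongest lines it was held by 26.5 ± 2.76% of exonic peaks against 17.0 ± 2.64% of the rest, and by 39.2 ± 1.09% of 5' UTR peaks, higher than the rest in 3 of 3 replicates both times (exact permutation p = 0.25, adjusted 0.397). In 19.1% of windows across 5' UTRs it was present as well. Optimal 3' UTR peaks held CACACA in 17.7%, less often than all 3' UTR peaks, at 24.0%. Among the strongest lines 3' UTR peaks differed from the rest by 3.10 ± 5.92 points, higher in 2 of 3 replicates. Over whole replicate lists the exonic difference for CACACA was -2.37 ± 1.06 points, higher in 0 of 3 replicates. In the 5' UTR stretches printed above GAGAG lay 2 bp from the eas summit, 4 bp from that of spen and 31, 47 and 69 bp from those of wts, ogre and Nup153.

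The GC box GGGCGG, the consensus known for mammalian Sp1, was within 100 bp of 10.8% of exonic summits, 6.91% of the rest and 6.77% of all pooled summits. Coding peaks held it in 15.3% and windows across coding sequence in 11.5%. Windows across all exonic sequence held it in 9.61%. In the optimal set it was present in 4.76% of exonic peaks and 3.89% of the rest. Among the replicates' strongest lines it was held by 7.90 ± 1.75% of exonic peaks, against 4.34 ± 1.14% of the rest, higher in 3 of 3 replicates (exact permutation p = 0.25, adjusted 0.397). By kind the difference was 0.315 ± 3.13 points in 5' UTRs, 4.94 ± 2.50 in 3' UTRs and 8.52 ± 7.51 in coding sequence. The word is all G and C, and these exonic peaks exceeded the rest in G+C by 5.54 ± 0.276 points. Whether the word goes with that excess was not tested. GGGNGGG, which shares GGGCGGG with the GC box, was near 8.05% of exonic and 9.35% of other summits outside promoters, with 4.30% of exonic windows and 6.73% of the windows of the rest holding it. It was present in 8.73% of exonic peaks of the optimal set, against 5.49% of optimal peaks of the rest. These are matches of letters and do not show where the protein sat.

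The exonic peaks lay in 888 of the 13132 protein-coding genes that have exon beyond 500 bp of a TSS (6.76%). Of these genes 654 held 1 peak, 150 held 2, 44 held 3 and 40 held 4 or more. Over all genes there were 0.496 peaks per 10 kb of such exon. The gene with the most was br, followed at a distance by EcR, Eip75B and corto with 8 each and Glut4EF, aqz and bun with 7 each.

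Gene groups differed in how often their exons held a peak. The ecdysone response list had the highest density, which rests on br. Ecdysone is the steroid that triggers moulting and metamorphosis, its receptor is EcR, and early genes such as br, Eip74EF and Eip75B encode transcription factors that pass the signal on. Of 18 genes 10 (55.6%) held an exonic peak, against 6.76% of all genes, with 50 peaks on 0.490% of the exonic sequence, or 3.96 per 10 kb. In the replicates' own lists 56, 54 and 27 exonic peaks lay in these genes, or 3.28, 2.74 and 2.32% of exonic peaks. Replicate 3 had the fewest and still lay above the share of sequence. Most were weak, with a median signal of 56.4 and 3 in the optimal set. Without br the list kept 30 peaks, at 2.75 per 10 kb, below the 3.59 of the larval serum, fat body and glue list. Its genes with the most exonic peaks, br, EcR and Eip75B, were about as dense over their whole bodies as in their exons.

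The strongest exonic peak of that list was in the 3' UTR of Hr4, a nuclear receptor of the cascade, at 333.1, with 114.5, 68.2 and 144.5 in the replicates. Kr-h1, a zinc finger gene that responds to juvenile hormone, had 265.1 in a 5' UTR, with 132.3 and 108.9 in replicates 1 and 2 and, 152 bp away, 46.5 in replicate 3. EcR reached 234.8 in a 5' UTR, with 89.7 and 96.2 in replicates 1 and 3 and, 149 bp away, 59.4 in replicate 2. The other genes with a peak were ftz-f1 (181.2), br (135.9), Eip75B (93.7), Eip74EF (90.2), E23 (78.3), Eip63E (54.9) and Eip78C (37.6), the value being the highest signal in the gene. In 2 of the 10 genes all 3 replicates had a summit within 100 bp of this peak.

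**Figure D4:**
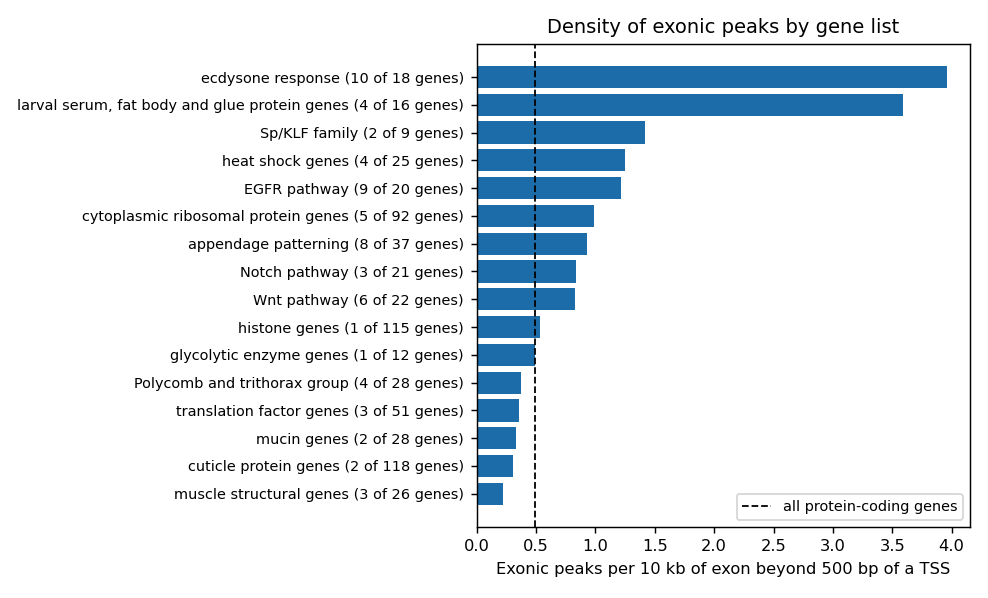
Exonic peaks per 10 kb of exon beyond 500 bp of a TSS for 16 gene lists, with the number of genes holding a peak of those listed; the dashed line is the value for all protein-coding genes, 0.496. The ecdysone response list reaches 3.96 and the muscle list 0.219.

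br encodes BTB zinc finger proteins needed to enter metamorphosis, through isoforms that share their first coding exons and end in alternative zinc finger exons. It held 20 exonic peaks, 13 in 3' UTRs and 7 in coding sequence, at 11.6 per 10 kb of exon. Their signals ran between 39.1 and 135.9 with a median of 60.6, and none was in the optimal set. The whole gene was dense in peaks, with 95 across its body or 10.6 per 10 kb, so its exons were peak-bearing at about the rate of the rest of the gene. Of these, 66 lay in introns (median signal 69.4, 6 in the optimal set) and 9 near a TSS (132.9, 3 in the optimal set). Replicates 1, 2 and 3 found 11, 15 and 3 of the 20 exonic peaks, and their own lists held 18, 21 and 6 exonic peaks in br. Replicate 3 was low in both counts. Of the 20, 3 were found in every replicate and 3 in none. The highest, in a 3' UTR (chrX:1662948-1663403), had 54.1, 73.3 and 16.8 in the replicates. The coding peaks included windows of up to 74.1% G+C, and the lowest window in br had 33.3%. Intervals overlapped in 12 of the 20, which left 14 separate regions.

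**Figure D5:**
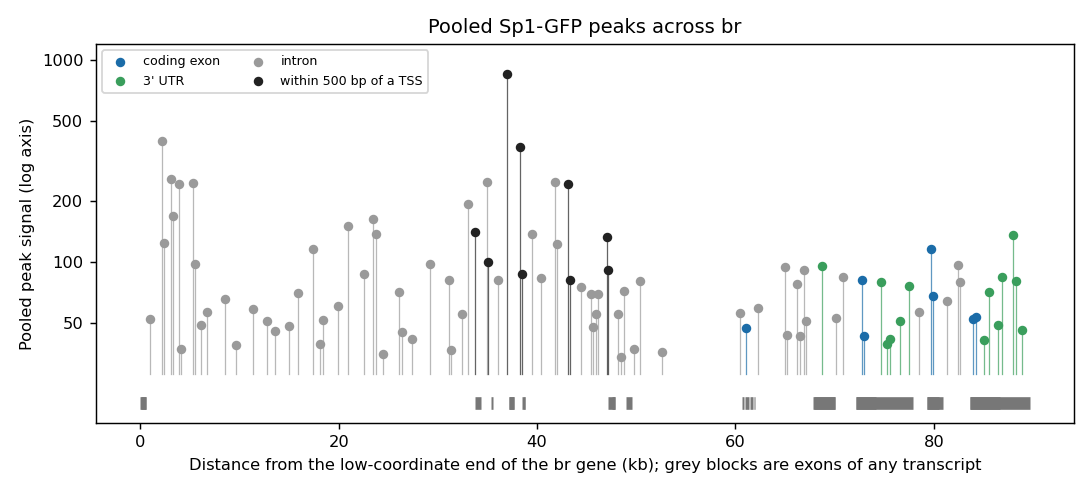
Pooled signal (log axis) of the 95 peaks across br by distance (kb) from the low-coordinate end of the gene, coloured by position, with exons as grey blocks. Exonic peaks lie toward the high-coordinate end, where the exons are long, and stay at or below 135.9, while the tallest peaks lie in introns and near TSSs.

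Other genes with many exonic peaks ranged between weak sets like that of br and sets of stronger peaks. EcR held 8 between 33.2 and 234.8 in 8.82 kb of exon, and Eip75B 8 between 38.9 and 93.7 in 9.76 kb. Like br, both were dense in peaks throughout. EcR had 9.07 per 10 kb of exon and 8.74 over its body, and Eip75B 8.20 and 9.14. corto, a cofactor of Polycomb and trithorax proteins, held 8 with a median of 104.6. An exon of 9294 bp spans its whole gene, so its gene-body peaks away from TSSs could only be exonic. bun, a TSC22-family gene, held 7, and Glut4EF and aqz 7 each, of which 1 in aqz was in the optimal set. drn held 6, with 537.5 as its highest. bif held 5 with a median of 261.8, of which 3 were in the optimal set, the most among the genes with 4 or more. Lsd-2 held 5, all in its 3' UTR and all at 113.7 or above, with 2 in the optimal set. dia, a formin gene, held 5 with a median of 132.8. CkIIbeta, the regulatory subunit of casein kinase 2, held 5 in its 3' UTR with a highest value of 92.2. The kinase genes Pdk and Pdk1, on different chromosome arms, held 5 each, with 18.8 and 11.0 per 10 kb.

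Among the other lists, 9 of 20 EGFR pathway genes (45.0%) held 10 peaks, against 6.76% of all genes with such exon. Per 10 kb of exon they held 1.22, against 0.496 over all genes. Raf was far above the others, followed by cic, a repressor relieved by the pathway (296.6), and sty, its feedback inhibitor (179.5). The cic peak had 26.4, 32.3 and 263.2 in replicates 1, 2 and 3. The medians of the rest in those lists were 35.8, 40.4 and 33.5, so only replicate 3 exceeded its own. Larval serum, fat body and glue protein genes had 7 peaks in 4 of 16 genes, at 3.59 per 10 kb. These were weak: the highest were 68.6 in Lsp1gamma, 57.6 in Sgs3 and 54.0 in Fbp1, and for the last no replicate had a summit within 100 bp. In the Sp/KLF family cbt held 3 peaks and dar1 1, at 1.42 per 10 kb over the family. The other members, Sp1 and btd included, had no exonic peak in the pooled list. The cbt 5' UTR peak reached 513.4, with 170.1 and 194.9 in replicates 1 and 2. The nearest summit of replicate 3, at 170.3, was 133 bp away and matched a second cbt summit of the same interval, whose pooled signal was 101.1. Wnt pathway genes had 8 peaks in 6 of 22 genes, at 0.828 per 10 kb, led by Wnt6 (223.8) and sgg, the kinase of the destruction complex (209.9). Appendage patterning genes had 13 in 8 of 37, at 0.927 per 10 kb, led by sd (110.9), drm (81.6) and hth (81.5), and none was in the optimal set. Notch pathway genes had 4 in 3 of 21, at 0.835 per 10 kb.

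Of the remaining lists, those of cytoplasmic ribosomal protein and heat shock genes lay above the overall density of 0.496, and the others near or below it. Cytoplasmic ribosomal protein genes held 5 peaks in 5 of 92 genes (5.43%, against 6.76% of all genes), at 0.987 per 10 kb, led by RpS23 (141.6). Their own-list counts were 18, 17 and 2 in replicates 1, 2 and 3, again lowest in replicate 3. These were 1.05, 0.863 and 0.172% of exonic peaks, on 0.196% of the exonic sequence. Heat shock genes held 5 in 4 of 25, at 1.25 per 10 kb, with Hsp83 highest at 73.2. Glycolytic enzyme genes held 1, at Hex-A (42.0), translation factor genes 3 and cuticle protein genes 2 in 118. Polycomb and trithorax group genes held 5 in 4 of 28, led by Su(z)2 (87.5). The muscle structural list held 5 in 3 of 26 genes, at 0.219 per 10 kb. Of these peaks 3 were in Act5C, a cytoplasmic actin gene that is not specific to muscle. TpnC73F, a troponin C, had the highest signal, 325.7, with 109.4, 113.8 and 103.6 in the replicates. Histone genes held 1, in the replacement histone gene His3.3B (32.8); the repeated copies are nearly identical and their peaks are uncertain. The mucin list, taken by symbol pattern, held peaks in Sgs3 and in Sgsh, and Sgsh is not a mucin gene.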

How the data were processed

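Each deposited list is in narrowPeak format on dm6. Its signal values are the authors' own peak heights relative to a control, with no scaling stated between lists. The control itself was not analysed here, so its level in exons was not set beside weak peaks. Per the deposited text descriptions, replicate lists came from each alignment, the pooled list from all 3, and the optimal set by IDR. Which aligner and caller were used is not given in the sources used here. Deposited lists hold no read counts, so depth is unknown. Replicates are separate biosamples of 1 line, and pairs of lists shared at most 0.617% of exact summits.

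Summits were placed with 19252 TSS positions of Ensembl release 115, in the order promoter (500 bp), 5' UTR, coding, 3' UTR, intron. Tests were exact sign-flip permutations over 3 replicates. Python 3.11.15, numpy 2.4.6, pandas 2.3.3 and matplotlib 3.10.9 were used, and classes and ratios were tested on simulated data. Alternatives changed the promoter distance, TSS set, summit rule, match distance and peak set. The members, lists and words were chosen with earlier results of these data known, and several lists are symbol patterns. Named were the 20 strongest members, the 5 strongest of each kind, genes with 4 or more, the 3 strongest genes of each list and the 3 peaks on each side of the limit. The wts peak, the printed 5' UTR sequences, other genes of the ecdysone list, Sgsh, and which genes with 4 or more were described were chosen after values were seen.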

Additional observations from a re-analysis of the deposited data

How the results depend on the processing

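The count of 1280 exonic peaks stayed within 1.5 times under 6 of 7 alternatives, and with coding sequence alone it was 556. The optimal share of 9.84% was 13.2% with promoters of 200 bp, 2.70% for coding peaks alone and 4.06% when only the stronger part of the optimal set was counted, down to its middle line. The log2 ratio of median signals, -0.526, was -0.453 with promoters of 200 bp, -0.730 for coding peaks and -0.173 among each replicate's strongest peaks, cut to the length of the optimal set. The mean share found in a replicate, 51.0%, was 40.8% for coding peaks, 38.7% at 50 bp and 69.5% with any overlap of intervals. The G+C difference of 6.81 points was 13.6 for coding peaks and 5.54 among those strongest peaks. Several of these alternatives use fewer peaks by construction; beyond that the cause was not tested. Neither the log2 ratio nor the G+C difference changed sign. The count and the shares cannot be negative, so for them this says nothing. Leaving out a replicate gave ratios of -0.563 to -0.492, shares of 47.5 to 56.8% and differences of 6.26 to 7.32 points. No paired analysis was possible because there is 1 group and replicates cannot be matched across groups; exonic and other peaks were compared within each replicate. Lists that end at 30000 lines limit what absence from a replicate shows.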
